A study of Mus musculus with 8 samples.

Results

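Fragments of the tRNAs that carry serine, threonine and selenocysteine were taken from a table of tRNA-derived fragments (tRFs) in pancreatic β-cells sorted from db/db mice and from wild type mice. The members were all sequences whose deposited name holds Ser-, Thr- or SeC, which gave 214 of the 2226 sequences in the table. The animals were males of 8 weeks. The db/db mice (BKS.Cg-Dock7m+/+LeprdbJ) lack a working leptin receptor and become obese and diabetic, and the wild type mice (BKS.Cg-Dock7m+/+) share the Dock7m background without the receptor defect. There were 4 libraries per genotype, each from islet cells that were sorted for β-cell autofluorescence. Islets of several animals were pooled for a preparation, of fewer animals for db/db than for wild type. By the study's own staining these fractions were nearly pure β-cells, but the table holds tRFs only, so the identity of the sorted cells could not be checked on marker genes, and p-values measure the spread between these pooled preparations.

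A mature tRNA ends in the bases CCA, which an enzyme adds and to which the amino acid is bound. Near that end lies the T-arm, whose loop is almost the same in all tRNAs, and near the start lies the D-arm. Serine tRNAs have a long variable arm, which their synthetase recognises. The selenocysteine tRNA (SeC-TCA) is first charged with serine, which is then converted to selenocysteine, and it reads a UGA stop codon in the messenger RNAs of selenoproteins such as glutathione peroxidases. A tRNA with a given amino acid and anticodon is an isoacceptor. RefSeq (GRCm38.p6) lists 38 genes for the 7 serine and threonine anticodons described here, of which 19 lie on chromosome 13 within chr13:21249194-23521951. They comprise 8 genes for Ser-GCT, 7 for Ser-AGA, 3 each for Ser-CGA and Ser-TGA, 9 for Thr-AGT, and 4 each for Thr-CGT and Thr-TGT. The serine genes are 82 bases long and the threonine genes 72 to 74. The fragments carry the name of an isoacceptor, not of a gene, and were not placed on single genes here.

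The most abundant fragment of each isoacceptor ended in the complete CCA. These 8 sequences are shown as the leading fragment of each isoacceptor, and capitals mark the CCA.
Ser-GCT, 17 nt: tcccatcctcgtcgCCA
Ser-CGA, 17 nt: tcctgttcgtgacgCCA
Ser-TGA, 17 nt: ccctgctcgctgcgCCA
Ser-AGA, 27 nt: caggttcgaatcctgccgactacgCCA
Thr-CGT, 17 nt: ccccgtccgtgcctCCA
Thr-AGT, 24 nt: gttcgaatcccagcggtgcctCCA
Thr-TGT, 24 nt: gttcaaatctcgctggggcctCCA
SeC-TCA, 30 nt: gagtggttcaattccacctttcgggcgCCA

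Fragments of one isoacceptor did not all share one 3′ end. Whether the rarer ends come from tRNA genes of their own was not tested, since the fragments were not placed on genes. The fragments of an isoacceptor were therefore also grouped by their last 16 bases, and those of at least 24 nt by their last 24 bases. The following ends are shown because the differences between the genotypes were found among them. Ends are numbered by abundance, and capitals mark the bases that differ from end 1 of the same isoacceptor and length.
Ser-GCT, last 16 bases, end 1: cccatcctcgtcgcca
Ser-GCT, last 16 bases, end 2: cccaCcTtcgtcgcca
Ser-GCT, last 16 bases, end 3: cccatcctcAtcgcca
Thr-CGT, last 16 bases, end 1: cccgtccgtgcctcca
Thr-CGT, last 16 bases, end 2: cccAGTGgGgcctcca
Thr-AGT, last 16 bases, end 1: cccagcggggcctcca
Thr-AGT, last 16 bases, end 2: cccagcggTgcctcca
Thr-AGT, last 24 bases, end 1: gttcgaatcccagcggggcctcca
Thr-AGT, last 24 bases, end 2: gttcAaatcccagcggggcctcca
Ser-CGA, last 16 bases, end 1: cctgttcgtgacgcca
Ser-CGA, last 16 bases, end 2: cctgCtcACAGcgcca
Ser-CGA, last 24 bases, end 1: gttcgaatcctgctcacagcgcca
Ser-CGA, last 24 bases, end 2: gttcAaatcctgctcacagcgcca
The paired 24-base ends of Ser-CGA both belong to its 16-base end 2, and those of Thr-AGT to its 16-base end 1. They differ by 1 base in the T-loop. Ends of different isoacceptors could be closer than ends of one: Thr-CGT end 2 differed by 1 of 16 bases from Thr-AGT end 1, and Ser-CGA end 2 by 2 bases from the end of Ser-TGA.

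The members held 50374 to 126501 counts of unique molecules in the wild type libraries and 51501 to 240617 in the db/db libraries, out of 582165 to 2946290 tRF counts per library. Fragments were 16 to 30 nt long. In all 12 pairs of libraries of one genotype the members differed by more than counting error (chi-square per degree of freedom 9.22 to 64.2), so no library counted as a copy of another. The members made up 8.60%, 8.65%, 7.99% and 9.999% of the tRF counts in the wild type libraries (1 to 4 in order, as in all lists of values by library), and 11.6%, 8.85%, 8.17% and 9.30% in the db/db libraries. The genotypes overlapped. The means were 8.81% ± 0.849 (wild type) and 9.47% ± 1.48 (db/db), with the SD of 4 libraries each, a difference of 0.663 percentage points that was within the spread of the libraries (two-sided exact permutation test, p = 0.514, adjusted p = 0.514 over 3 tests). Serine fragments were 5.64% ± 0.304 and 6.29% ± 0.932 of all tRF counts, threonine fragments 1.65% ± 0.450 and 1.71% ± 0.331, and selenocysteine fragments 1.52% ± 0.359 and 1.47% ± 0.298, in wild type and db/db in turn (SD, n = 4).

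Ser-GCT, which reads the AGC and AGU serine codons, was the most abundant member in every library, with 40.6% to 50.6% of the member counts. SeC-TCA held 12.4% to 20.4% and came next in 7 of 8 libraries, with Thr-AGT slightly above it in wild type library 2. Ser-CGA lay between 5.81% and 12.9%, Ser-TGA between 5.61% and 12.03%, Thr-AGT between 4.56% and 12.6% and Thr-CGT between 5.999% and 7.89%. Thr-TGT lay between 2.34% and 6.01% and Ser-AGA between 2.99% and 4.87%. The ranges of these 6 isoacceptors overlapped in part, so their order did not hold from library to library.

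For the comparison of genotypes, the sequences were first summed into families, one for each isoacceptor and end. Fragments with a terminal CCA formed the 3′ families, sets of at least 5 sequences with a common start formed the 5′ families, and the rest were internal. The 15 member families did not differ between db/db and wild type β-cells by the test used. A family was called at a fold change above 2 and an adjusted p below 0.1 (edgeR, quasi-likelihood, Benjamini-Hochberg). By this rule 0 of 15 were called, against 19 of all 110 families (17.3%). At an unadjusted p-value below 0.05 the count was 0 of 15, against 27 of all 110, and DESeq2 called 0. The lowest adjusted p-value of a member family was 0.363, and the median log2 fold change was 0.13 for the members and −0.03 for all families. CPM (tRF counts scaled to a common library size and given per 1e+06) is the unit of the levels.

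The 3′ family of Ser-GCT stood at 37273, 29526, 38569 and 48889 CPM in the wild type libraries, and the db/db libraries had 42874, 49677, 43981 and 36324 CPM. The ranges overlapped almost wholly, and the log2 fold change was 0.16 ± 0.27 (SE, adjusted p = 0.734 in edgeR). The 3′ family of SeC-TCA ran from 8422 to 21153 CPM in wild type and from 13345 to 16878 CPM in db/db, with a log2 fold change of −0.04 ± 0.30 (SE, adjusted p = 0.932). Both were abundant and close to level between the genotypes. The 3′ family of Ser-CGA stood at 5378 to 7298 CPM in wild type and 6783 to 14043 CPM in db/db, where db/db library 3 alone stood above 7315 CPM. Its log2 fold change of 0.48 ± 0.31 was the highest of the member families (SE, adjusted p = 0.363 in edgeR). Without db/db library 3 it was 0.16, and it was then no longer the highest. For Ser-TGA, Thr-CGT, Thr-TGT, Ser-AGA and Thr-AGT the log2 fold changes of the 3′ families were 0.13, 0.26, 0.32, 0.40 and −0.20, with standard errors of 0.29 to 0.35. The value of Thr-TGT rested on wild type library 4, at 6012 CPM beside 1905 to 2468 CPM in the other wild type libraries. Without this library its log2 fold change was 0.85 (adjusted p = 0.0357 in edgeR), which is less than 2-fold. The low 5′ and internal families lay between −0.32 and 0.29. The plot of family levels by library shows how far apart the families lay.

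**Figure D1:**
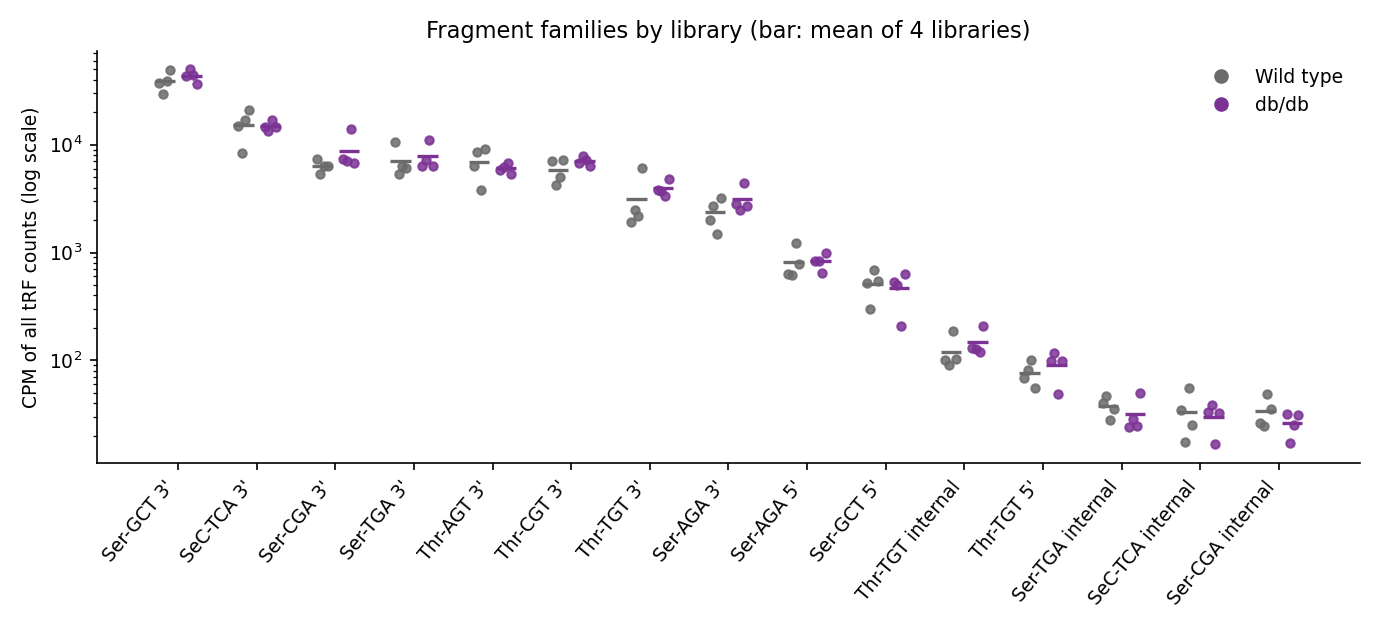
Level of each of the 15 fragment families in each library, in CPM of all tRF counts on a log scale, with wild type libraries in grey, db/db libraries in purple and a bar at the mean of 4. The genotypes overlap in every family, from Ser-GCT 3′ at 29526 to 49677 CPM down to the internal sets of SeC-TCA, Ser-CGA and Ser-TGA below 60 CPM.

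Within a 3′ family the fragments formed a ladder that shared its end and differed in where the tRNA had been cut. The ladder of Ser-GCT is shown in its longest form, in which capitals mark the first base of each fragment length that held at least 5% of the 3′ counts.
Ser-GCT, 30 nt: gCaTgggttcgaaTCccatcctcgtcgcca
SeC-TCA, 30 nt: GAGTgGttcaatTCcacctttcgggcgcca
In Ser-GCT, 26.6% of the 3′ counts were 16 nt long and 28.6% were 17 nt, as means over 8 libraries. These fragments begin at the 3′ edge of the T-loop. A second cluster began upstream of the T-loop, with 8.53% at 27 nt and 10.6% at 29 nt, while 28 nt held 1.40%. Between them lay small maxima at 21 nt (4.88%) and 24 nt (4.59%), and each other length held between 0.49% and 4.31%.

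The isoacceptors had different ladders. Lengths of 16 and 17 nt together held 59.9% of the 3′ counts in Ser-CGA, 55.1% in Ser-GCT and 50.8% in Ser-TGA, but 20.03% in Ser-AGA. They held 32.3% in Thr-CGT, 20.4% in Thr-AGT, 18.2% in Thr-TGT and 10.9% in SeC-TCA. The most frequent length was 27 nt in Ser-AGA (25.1%), 24 nt in Thr-AGT (25.8%) and in Thr-TGT (26.5%), and 17 nt in Thr-CGT (21.4%). SeC-TCA was the most unlike the others: 32.5% of its 3′ counts were 30 nt, the longest length in the table, and 16.8% were 28 nt. Since no longer fragments were analysed here, the upper end of its ladder is not known.

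The genotypes overlapped at 119 of the 120 lengths of the 8 ladders. This count includes 30 nt in Ser-TGA and in Thr-TGT, which held no counts in any library and so could not differ. The same count over the ladders of other tRNAs was not determined. The exception was Thr-AGT at 16 nt, which held 8.00% to 9.50% of its 3′ counts in wild type and 9.59% to 12.3% in db/db. The mean length of the member 3′ fragments was 21.7 ± 0.604 nt (wild type) and 21.2 ± 0.356 nt (db/db), with the SD of 4 libraries each, a difference of −0.44 nt (two-sided exact permutation test, p = 0.200, adjusted p = 0.300 over 3 tests). By library, the means were 21.1, 21.9, 21.2 and 22.4 nt in wild type and 20.9, 21.1, 21.1 and 21.7 nt in db/db. In each of the 8 isoacceptors the ranges of the genotypes overlapped. The lowest mean length of an isoacceptor was that of Ser-CGA (19.5 nt over 8 libraries), and the highest was that of SeC-TCA (25.8 nt).

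**Figure D2:**
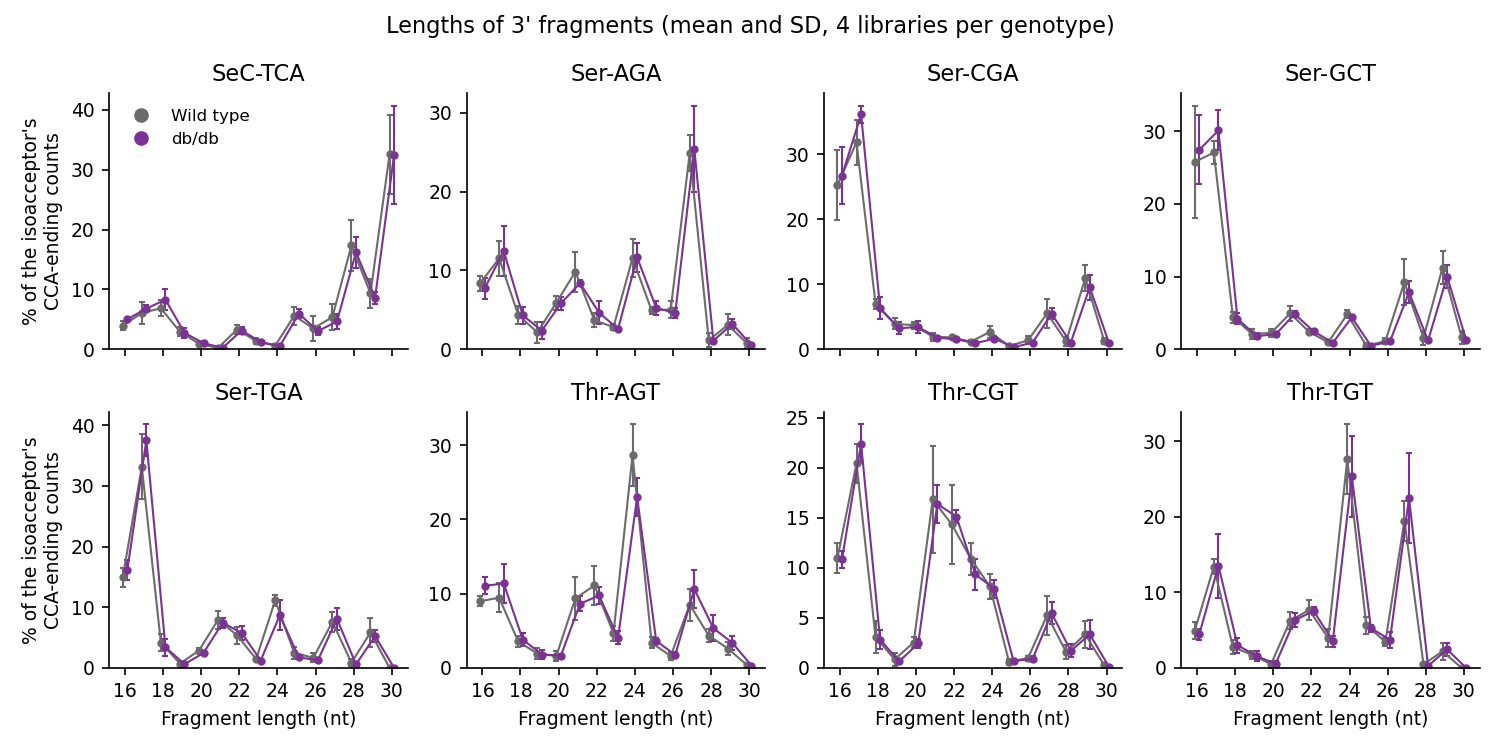
Share of the CCA-ending counts of each isoacceptor by fragment length in nt, as the mean and SD of 4 wild type libraries (grey) and 4 db/db libraries (purple). Ser-CGA, Ser-GCT and Ser-TGA peak at 16 and 17 nt, Thr-AGT and Thr-TGT at 24 nt, Ser-AGA at 27 nt and SeC-TCA at 30 nt. The genotypes overlap at every length with counts except 16 nt in Thr-AGT.

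Single sequences were tested next. Of the 214 members 186 had enough counts for a test, and 6 were called by the same rule. Of these, 5 were higher in db/db β-cells, where 5.57% of all tested sequences were called higher, and 1 was lower, where 9.44% of all were called lower. The median log2 fold change was −0.05 over the members tested and 0.00 over all sequences. The genotypes did not overlap in 7 of the 186 members, against 17.1% of all sequences tested. At an unadjusted p-value below 0.05 there were 12 of 186 members, against 390 of all 1832 sequences tested. The other 28 members were too low for a test. The table lists a sequence with at least 5 counts in at least 4 libraries, so a rare sequence could enter it through one genotype alone. Of the 5 called higher, 2 reached 5 counts in all db/db libraries but not in all wild type libraries. They were thus listed through the genotype in which they are higher, and they are given below as values without a test.

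All 5 sequences called higher were 3′ fragments with low-abundance ends. The Ser-GCT fragments of 16 and 17 nt and the Thr-CGT fragment of 24 nt, described first, had at least 5 counts in all 8 libraries. The Ser-GCT fragment of 16 nt with end 2 had 42.7, 9.48, 28.6 and 23.9 CPM in the wild type libraries, where the db/db libraries had 140, 166, 139 and 89.7 CPM. Each db/db library lay above each wild type library, and the log2 fold change was 2.37 ± 0.44 (SE, adjusted p = 0.000364 in edgeR). Its 17-nt neighbour rose by 2.14 ± 0.42 on the log2 scale (SE, adjusted p = 0.000614). Both calls were lost with library sizes worked out from the authors' normalised values (adjusted p = 0.136 at 16 nt and 0.261 at 17 nt in edgeR). The main Ser-GCT fragments of the same lengths, which differ from them by 2 bases, had 10775 and 11544 CPM on average and log2 fold changes of 0.06 ± 0.35 and 0.14 ± 0.32 (SE, adjusted p = 0.945 and 0.836).

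The Thr-CGT fragment of 24 nt with end 2 rose by 1.33 ± 0.48 on the log2 scale (SE, adjusted p = 0.0787 in edgeR), a call that was lost without wild type library 1 or 4 or db/db library 1 (log2 fold changes 1.42, 1.20 and 1.24) and in a fit with a term for library names (1.35, adjusted p = 0.101 in edgeR). The 27-nt fragment with the same end was at 0 CPM in wild type library 1 and at 8.12, 3.36 and 11.6 CPM in libraries 2 to 4. In db/db β-cells it stood at 25.1, 43.3, 47.8 and 34.6 CPM. It had 0 to 15 counts per wild type library and reached 5 counts in 2 of these 4 libraries. The fifth was a Ser-CGA fragment of 29 nt with the rarer T-loop base, at 19.6, 12.2, 5.04 and 3.86 CPM in wild type and 36.7, 34.3, 37.0 and 33.8 CPM in db/db. It had 3 to 11 counts per wild type library and reached 5 counts in 3 of these 4. In both fragments the wild type values spread widely and rest on few molecules.

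**Figure D3:**
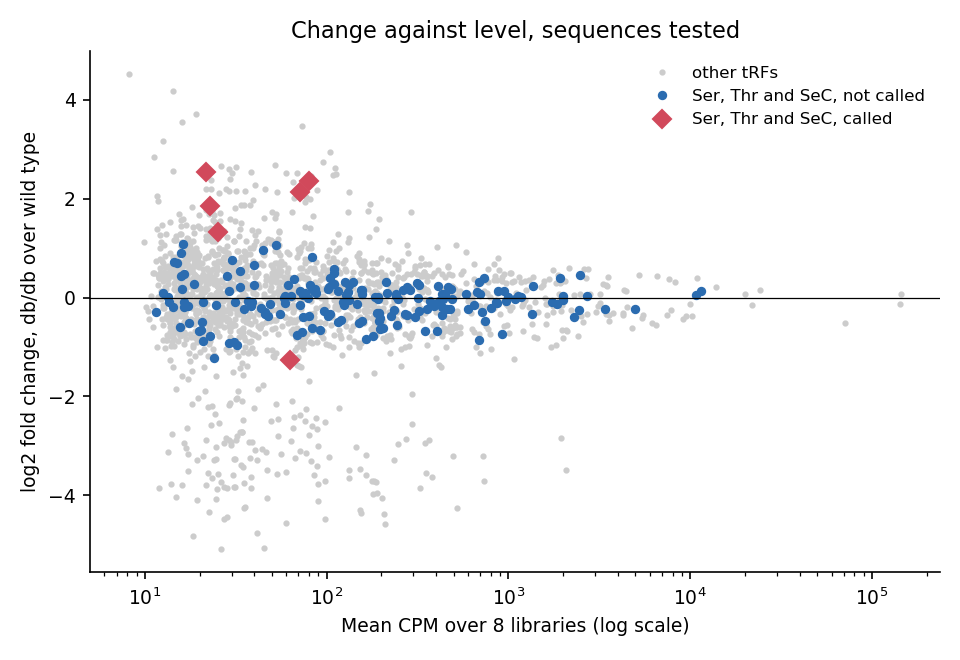
Log2 fold change of db/db over wild type against mean CPM over 8 libraries (log scale) for the 1832 sequences tested, with members in blue, called members as red diamonds and other tRFs in grey. The 6 called members lie below 100 CPM, and the most abundant members lie near 0.

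The 16-base ends gather the counts of all lengths, and here the whole of end 2 was tested. Of 13 member ends tested, 2 were called higher in db/db β-cells and 0 lower, where 11.4% of all ends were called higher. An end inherits the listing of its sequences, and both called ends hold some that were listed through db/db: 2 of the 4 sequences of Ser-GCT end 2 and 1 of the 2 of Thr-CGT end 2. The shares given further on were therefore also computed from sequences with at least 5 counts in all 8 libraries. Ser-GCT end 2 stood at 61.0, 50.6, 81.0 and 70.2 CPM in wild type and 341, 346, 177 and 232 CPM in db/db. Its log2 fold change was 2.06 ± 0.33 (SE). Thr-CGT end 2 stood at 14.4, 28.1, 18.7 and 23.1 CPM in wild type and 68.4, 68.5, 61.9 and 83.2 CPM in db/db, which includes the 27-nt fragment. Since both ends include sequences listed through db/db, no p-value is given for either. The abundant end 1 of these isoacceptors had log2 fold changes of −0.14 ± 0.21 and −0.04 ± 0.21. Ser-GCT end 3, with 78 counts in wild type and 90 in db/db, had a log2 fold change of −0.51 ± 0.44 and was not called. Thr-AGT end 2, a common end, had a log2 fold change of −0.75 ± 0.25 (SE, adjusted p = 0.0477), which is less than 2-fold. Without wild type library 3 it was −1.01 and passed the call.

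By the last 24 bases, 2 of 13 member ends were called higher and 0 lower, where 9.76% of all such ends were called higher. One was again the Thr-CGT end 2. The other was the Ser-CGA end with the rarer T-loop base, at 20.7, 12.7, 7.35 and 5.52 CPM in wild type and 56.1, 47.0, 36.9 and 46.3 CPM in db/db. Both of its sequences were listed through db/db, so its values are given without a test. The corresponding end of Thr-AGT had 208, 271, 154 and 324 CPM in wild type and 318, 500.2, 343 and 439 CPM in db/db, with a log2 fold change of 0.72 ± 0.27 (SE, adjusted p = 0.0573), which is under 2-fold. Its commoner partner with the other T-loop base had a log2 fold change of −0.56 ± 0.24 (SE, adjusted p = 0.0989).

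The share of an end within its isoacceptor does not depend on how libraries are scaled to each other. Ser-GCT end 2 made up 0.148%, 0.142%, 0.166% and 0.156% of the Ser-GCT 3′ counts in the wild type libraries, against 0.832%, 0.764%, 0.604% and 0.576% in the db/db libraries. The wild type libraries lay close together and the db/db mean was 4.53 times higher. The 95% Wilson intervals, which cover counting error only, reached up to 0.227% in wild type and down to 0.505% in db/db. The share of Thr-CGT end 2 was 0.187%, 0.549%, 0.298% and 0.348% in wild type and 1.07%, 0.960%, 1.29% and 1.19% in db/db, 3.26 times higher on average. Here the intervals of the genotypes met, since they reached up to 0.846% in wild type and down to 0.703% in db/db.

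The T-loop variant of Ser-CGA made up 2.26%, 1.96%, 1.20% and 0.857% of its parent end in wild type and 8.71%, 8.87%, 5.84% and 7.66% in db/db, with intervals up to 4.01% and down to 4.90%. That of Thr-AGT made up 8.56%, 10.5%, 9.26% and 14.9% in wild type and 23.1%, 23.99%, 20.3% and 24.4% in db/db, with intervals up to 16.1% and down to 19.2%. In all 4 of these ends every db/db library lay above every wild type library, and each of them includes at least 1 sequence that was listed through db/db. For the Thr-AGT variant, however, 5 of the 6 sequences had at least 5 counts in all 8 libraries, and the last one in all but 1 wild type library.

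With sequences at 5 counts or more in all 8 libraries alone, Ser-GCT end 2 made up 0.127% ± 0.0278 in wild type and 0.611% ± 0.108 in db/db (SD of 4 libraries), and the Thr-AGT variant 10.5% ± 2.78 and 22.4% ± 1.87. These did not overlap, and for each the two-sided exact permutation test gave p = 0.0286, the smallest value that 70 assignments allow (adjusted p = 0.0839 over 47 minority ends of all tRNAs, which misses 0.05). Thr-CGT end 2, with its 24-nt fragment alone, made up 0.169% to 0.386% in wild type and 0.372% to 0.680% in db/db, which overlapped (exact permutation test, p = 0.0571). No sequence of the Ser-CGA variant was left. The separation of these last ends thus rests on sequences listed through db/db.

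Minority ends of other tRNAs were compared in the same way. Of all 53 minority ends in the table the genotypes did not overlap in 19 (35.8%), and in all 19 the db/db share was the higher one. The members, with 4 of 9, were near that background. From the sequences at 5 counts or more in all 8 libraries it was 16 of 47 ends and 2 of 8 member ends, again all higher in db/db. In the other 5 member ends the genotypes overlapped. Ser-GCT end 3, also rare, had the lower mean share in db/db, at 0.0649% ± 0.0155 in wild type and 0.0501% ± 0.0211 in db/db (SD, n = 4; exact permutation test, p = 0.371). Ser-CGA end 2 made up 15.1% ± 3.55 of its isoacceptor in wild type and 12.3% ± 1.80 in db/db (SD, n = 4; exact permutation test, p = 0.200), and Thr-AGT end 2 made up 46.1% ± 2.21 and 38.6% ± 4.21 (SD, n = 4; exact permutation test, p = 0.0571). Both were common ends, and in both the mean was lower in db/db. Ser-GCT fragments of at least 28 nt were split between a pair of variants that differ by 1 base just upstream of the T-loop. The rarer one in the pooled counts made up 29.4%, 48.8%, 43.3% and 53.6% in wild type and 56.0%, 50.6%, 48.3% and 52.5% in db/db, so that wild type library 1 stood apart from the rest. The second variant of the Thr-CGT fragments of at least 28 nt made up 42.9% in wild type and 47.4% in db/db on average (exact permutation test, n = 4 per genotype, p = 0.0571).

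**Figure D4:**
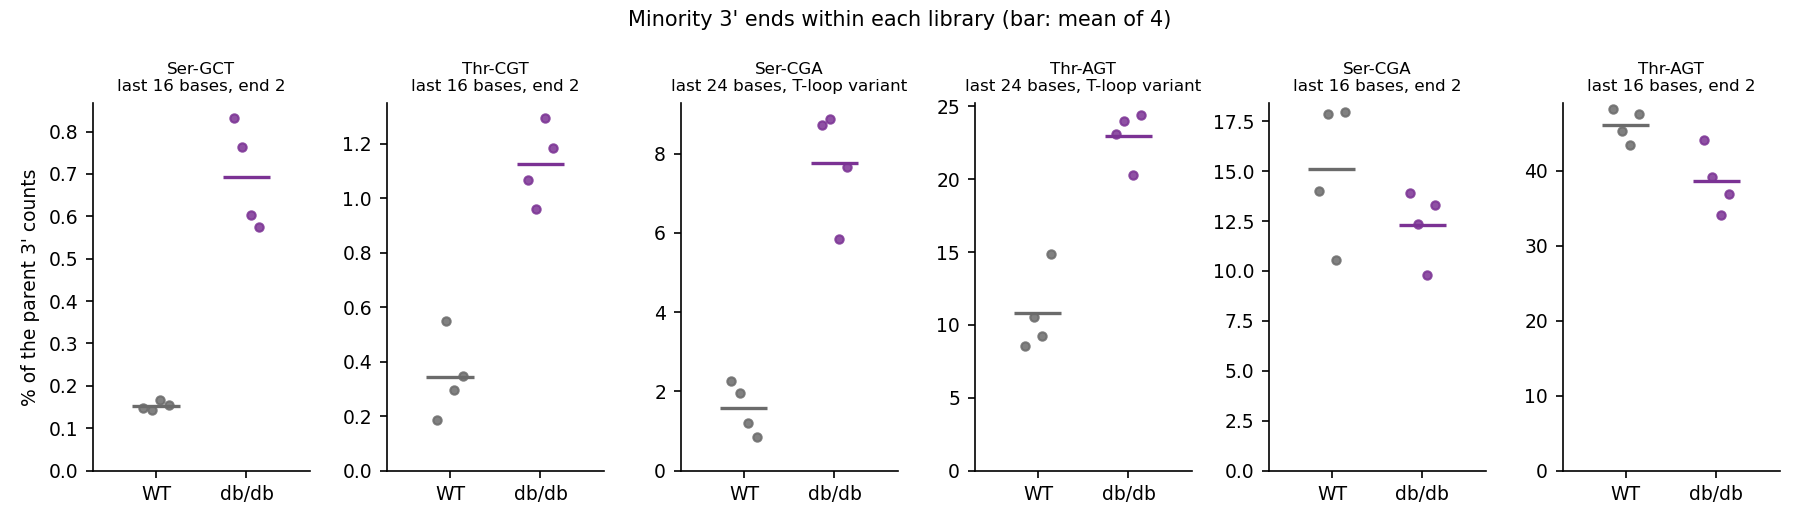
Share of a minority 3′ end in the counts of its parent 3′ fragments, in percent, for each wild type (grey) and db/db (purple) library, with a bar at the mean of 4 and an axis from 0 in each panel. In the first 4 panels every db/db library lies above every wild type library, as for Ser-GCT end 2 at 0.142% to 0.166% against 0.576% to 0.832%, and in the last pair the genotypes overlap.

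Fragments of the tRNA start were rare in this group. A 5′ family was found for Ser-AGA, with 10 sequences and 0.827% of the member counts, for Ser-GCT, with 11 sequences and 0.466%, and for Thr-TGT, with 5 sequences and 0.080%. For Ser-CGA, Ser-TGA and SeC-TCA only 2 sequences each shared a start, fewer than required, so they were counted as internal. The starts of the 4 serine isoacceptors at 24 nt are shown because they share the D-arm, and capitals mark the run of 17 bases, from base 8 on, that all 4 have in common.
Ser-AGA, 24 nt: gtagtcgTGGCCGAGTGGTTAAGG
Ser-CGA, 24 nt: gtcacggTGGCCGAGTGGTTAAGG
Ser-GCT, 24 nt: gacgaggTGGCCGAGTGGTTAAGG
Ser-TGA, 24 nt: gcagcgaTGGCCGAGTGGTTAAGG
Only the first 7 bases, which pair with the 3′ end of the tRNA, told these fragments apart.

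The serine 5′ fragments had 2 preferred lengths, 18 and 24 nt. In Ser-AGA 34.0% of the 5′ counts were 18 nt and 23.8% were 24 nt, and in Ser-GCT 28.1% and 32.1%, as means over 8 libraries. Fragments of 22 nt or longer made up 49.7%, 39.8%, 45.4% and 54.6% of the Ser-AGA 5′ counts in wild type and 28.8%, 40.4%, 31.1% and 30.1% in db/db. One db/db library, library 2, lay within the wild type range. In Ser-GCT they made up 65.4%, 51.0%, 67.1% and 69.9% in wild type and 46.6%, 47.3%, 45.6% and 55.1% in db/db, where db/db library 4 lay within the wild type range. The differences of −14.8 and −14.7 percentage points had an exact permutation p of 0.0571 each (two-sided, n = 4 per genotype, adjusted p = 0.0571 over both), which misses 0.05. At single lengths, Ser-GCT fragments of 24 nt made up 31.4% to 42.2% in wild type and 23.3% to 29.96% in db/db, those of 29 nt 6.67% to 8.11% and 4.32% to 5.73%, and those of 30 nt 5.88% to 11.5% and 4.32% to 5.73%. At 16 nt the order was the other way, with 1.18% to 3.04% in wild type and 3.13% to 4.99% in db/db. Ser-AGA fragments of 25 nt made up 8.62% to 12.3% in wild type and 3.41% to 6.73% in db/db. At these lengths the genotypes did not overlap, and at all other lengths of the Ser-AGA, Ser-GCT and Thr-TGT 5′ fragments they did. Lengths without overlap were thus 4 of 11 in Ser-GCT, 1 of 10 in Ser-AGA and 0 of 5 in Thr-TGT. How often 5′ lengths of other tRNAs did not overlap was not determined, so these lengths are not read as particular to the members. The shares within one family sum to a whole, so its lengths are not independent.

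The one member sequence called lower in db/db was of this kind, the 25-nt form of the Ser-AGA 5′ fragment, which is 1 base longer than the 24-nt form shown above.
Ser-AGA, 25 nt: gtagtcgtggccgagtggttaaggc
It had 80.1, 88.0, 109 and 74.9 CPM in wild type and 27.05, 52.3, 27.9 and 40.9 CPM in db/db, without overlap. Its level fell by 1.27 ± 0.40 on the log2 scale (SE, adjusted p = 0.0332 in edgeR), a call that was lost without db/db library 1 or 3 (log2 fold changes −1.14 and −1.09) and under a pair of the scalings tried. The most abundant 5′ fragment of Ser-AGA, of 18 nt, had a log2 fold change of 0.21 ± 0.35 (adjusted p = 0.780), and that of Ser-GCT, of 24 nt, of −0.83 ± 0.41 (adjusted p = 0.243).

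**Figure D5:**
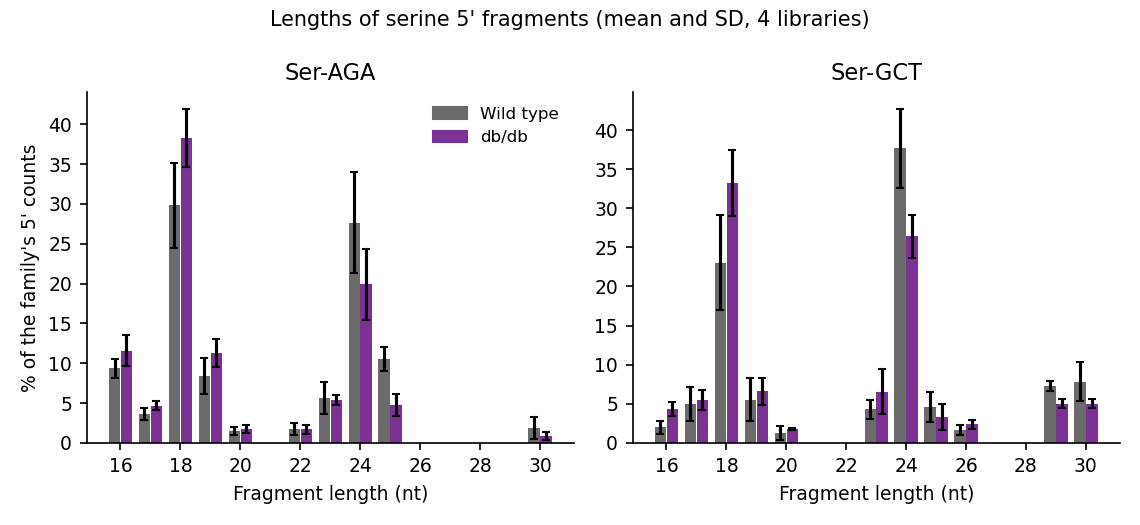
Share of the 5′ counts of Ser-AGA and Ser-GCT by fragment length in nt, as bars at the mean of 4 libraries with the SD, in grey for wild type and purple for db/db. Both isoacceptors peak at 18 and 24 nt, and at 24 nt the db/db mean is the lower one.

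Thr-TGT had 11 internal sequences that made up 0.138% of the member counts. The most abundant ran from the anticodon arm into the T-arm, and capitals mark its anticodon.
Thr-TGT, internal, 30 nt: cactggtctTGTaaaccaggggtcgcgagt
It stood at 8.50 to 20.3 CPM in wild type and 9.66 to 24.9 CPM in db/db (log2 fold change −0.10 ± 0.54, adjusted p = 0.934 in edgeR), which overlapped.

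Fragments that stop just before the end of the CCA were rare among the members. Only 2 of the 214 members ended 1 to 3 bases short of CCA, against 204 of the 2012 other sequences, and these came from 2 of 8 member isoacceptors and from 24 of 37 others with CCA-ending fragments. Both are shown, with the bases at which they stop.
Thr-TGT, 16 nt, 1 base short: tctcgctggggcctcc
SeC-TCA, 27 nt, 3 bases short: gagtggttcaattccacctttcgggcg
The Thr-TGT fragment had 9, 21, 11 and 28 counts in wild type libraries and 3, 1, 3 and 3 in db/db libraries. The SeC-TCA fragment had 8, 5, 8 and 15 counts in wild type and 3, 6, 11 and 6 in db/db. As a share of all member 3′ ends they made up 0.0368% ± 0.00723 in wild type and 0.00917% ± 0.00364 in db/db libraries (SD of 4 each). The Thr-TGT fragment, which carries the difference, reached the 5 counts required by the table in the 4 wild type libraries only. It was thus listed through the genotype in which it is higher, so no test of the genotypes is given for it or for the share. Neither sequence passed the filter on low counts for the main test of single sequences.

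Members and other tRNAs were also compared within each library. The share of 3′ ends that stopped short of CCA was 0.0230% ± 0.0157 for the members and 1.93% ± 1.75 for the others (SD, n = 8 libraries), lower for the members in 8 of 8 libraries. Without Pro-AGG, an isoacceptor rich in short ends, the others stood at 1.24% ± 1.09. Fragments with the full CCA made up 98.2% ± 0.568 of the member counts and 91.7% ± 2.61 of the others, and the 5′ class made up 1.56% ± 0.490 and 4.15% ± 1.16. Among CCA-ending fragments, 41.3% ± 5.02 of the member counts were 16 or 17 nt long, against 12.9% ± 1.97 of the others and 26.7% ± 3.34 of the others without the dominant Asp-GTC (SD, n = 8 libraries). Each of these differences went one way in 8 of 8 libraries, with p = 0.00781 in an exact two-sided sign-flip permutation test, the smallest value possible, and the same adjusted p over 6 comparisons. The other tRNAs are a count-weighted mixture in which Asp-GTC holds the largest part, and among the members Ser-GCT does. By isoacceptor, 16 and 17 nt together held 59.9% in Ser-CGA, 55.1% in Ser-GCT, 50.8% in Ser-TGA and 32.3% in Thr-CGT. They held 20.4% in Thr-AGT, 20.03% in Ser-AGA, 18.2% in Thr-TGT and 10.9% in SeC-TCA, below the 26.7% above. The p-value measures the spread between libraries, not between tRNAs, so the length difference is not a trait of every member.

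Over the 8 libraries, the families of other tRNAs whose log2 CPM ran most like the Ser-GCT 3′ family were Leu-AAG 3′ (Pearson r = 0.84), Ala-CGC 3′ (r = 0.83) and Ala-AGC 3′ (r = 0.73). Among the members Thr-CGT 3′ (r = 0.83) and SeC-TCA 3′ (r = 0.72) were closest, whereas Ser-CGA 3′ (r = 0.39), Ser-AGA 3′ (r = 0.29) and Ser-TGA 3′ (r = 0.25) were further away. These values describe the same 8 libraries with the same scaling factors and carry no test.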

How the data were processed

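Small RNA of sorted β-cells was sequenced with unique molecular identifiers, and per the study's methods the authors collapsed reads by identifier, aligned them to GRCm38.p6 and kept perfect matches to mature tRNAs. The deposited table gives, per sequence and library, the authors' count of molecules (not normalised), an RPM rounded by the authors to a whole number and used here as a score, and a deposited normalised log2 value (method not stated there). The last pair served only to work out library totals and effective sizes. A column of the authors' directions of change was not used. The table lists sequences with at least 5 counts in at least 4 libraries, so absence below that is not known. The depth was 582165 to 2946290 tRF counts per library.

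The tests of counts used edgeR 4.0.16 and R 4.3.3 (TMM factors set separately for sequences, families and ends, filterByExpr with a minimum count of 10 and total of 15, quasi-likelihood test, Benjamini-Hochberg adjustment over all features). A 5′ start needed the same first 8 bases, and an end short of CCA an overlap of at least 12 bases. Standard errors are the fold change over the root of its F statistic. For shares and lengths, all 70 assignments of libraries were enumerated in exact two-sided permutation tests (smallest p 0.0286) in SciPy 1.17.1 and Python 3.11.15. The members, lists and tests were chosen with earlier results of these data known. The end groups, the shares of minority ends, their repeat with sequences at 5 counts or more in all 8 libraries, the lengths of 5′ fragments, the comparison with other tRNAs and 5′ sets of 2 or more sequences were added after seeing the data. Named were the family and most abundant sequence of each isoacceptor and end, the sequences short of CCA, the called members, the Ser-GCT ladder and the 3 families most like Ser-GCT 3′. The procedure was tested on simulated data.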

Additional observations from a re-analysis of the deposited data

Results flagged for a closer look

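Single libraries stood apart in 6 of 68 groups of 4 libraries examined (Dixon's criterion at 95%, which chance meets in about 1 of 20 groups). The Ser-CGA 3′ family was at 14043 CPM in db/db library 3, where the other db/db libraries had 6783 to 7315 CPM. The Thr-TGT 3′ family was at 6012 CPM in wild type library 4, against 1905 to 2468 CPM in the other wild type libraries. Its internal family was at 186 CPM in wild type library 3, against 91.0 to 104 CPM, and at 210 CPM in db/db library 4, against 120 to 131 CPM. Ser-GCT end 3 made up 0.0814% of the Ser-GCT 3′ counts in db/db library 2, against 0.0370% to 0.0445%. Wild type library 4 had 126501 member counts, where the other wild type libraries had 50374 to 61014.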

How the results depend on the processing

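Of the members, 4 to 9 sequences were called under every alternative run except one. With the authors' effective library sizes 1 was called, the Thr-TGT fragment 1 base short of CCA. The filter removes this fragment in the main fit, and it is listed through wild type libraries only. It was also called with the implied totals, without a filter and in most runs with 1 library left out (log2 fold changes −3.71 to −2.96). With the effective sizes the median of all sequences shifted to −0.49 on the log2 scale. Relative to that median the Ser-GCT fragment of 16 nt with end 2 was 2.60 higher, where it was 2.37 higher with TMM, and its adjusted p was 0.136 (0.000266 to 0.013 over its other edgeR alternatives). Leaving out each library gave 5 to 9 called members, DESeq2 6, no filter 9 and merged sequences 4. No member family was called under any alternative. The member share differed by −0.040 to 1.10 percentage points when single libraries were left out, turning without db/db library 1. The effective sizes also ended the call of Ser-GCT end 2 (log2 fold change 1.71), and the implied totals that of the Thr-CGT fragment of 24 nt (0.94). From sequences with at least 5 counts in all 8 libraries, a choice made after seeing the data, the genotypes overlapped in the share of Thr-CGT end 2 and not in those of Ser-GCT end 2 and the Thr-AGT variant. The call of the Ser-AGA fragment of 25 nt was lost without a normalisation factor (−1.14, adjusted p = 0.119) and with the effective sizes (−1.82, adjusted p = 0.194).

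Uncalled families changed sign as follows. With the implied totals and the effective sizes in turn, the log2 fold change was −0.17 and −0.23 for Ser-AGA 3′, −0.46 and −0.65 for Ser-AGA 5′, −0.34 and −0.46 for Ser-GCT 3′, −0.36 and −0.40 for Ser-TGA 3′, −0.27 and −0.41 for Thr-CGT 3′, −0.24 and −0.41 for Thr-TGT 3′, −0.39 and −0.71 for Thr-TGT 5′, and −0.20 and −0.37 for Thr-TGT internal, where the median of all families was −0.58 and −0.67. SeC-TCA 3′ was 0.081 with RLE factors and with DESeq2, and Ser-CGA end 2 was 0.063 without a normalisation factor. Without single libraries the ranges were −0.14 to 0.16 for SeC-TCA 3′, −0.28 to 0.19 for SeC-TCA internal, −0.059 to 0.28 for Ser-AGA 5′, −0.25 to 0.13 for Ser-GCT 5′, −0.093 to 0.41 for Ser-TGA 3′ and −0.41 to 0.014 for Thr-AGT 3′. The cause was not tested. No paired analysis was possible because no replicate number in the labels occurs in both genotypes. A fit with a term for library names (A to D against F to I), which is not a pairing, called 5 members and lost the Thr-CGT fragment of 24 nt (1.35, adjusted p = 0.101 in edgeR). Few counts per rare end limit the precision.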
